A study of Mus musculus with 17 samples.

Results

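Kiss1, Tac1, Tac2, Pdyn and Penk encode precursors of kisspeptin, tachykinin and opioid peptides. They were chosen by name, and all 5 were among the 15355 genes of the deposited table and among the genes tested in every comparison. The table covers 17 libraries of ribosome-bound RNA from the mediobasal hypothalamus of POMC RiboTag mice, in which a hemagglutinin (HA) tag on a ribosomal protein lets the translated RNA of the tagged cells be pulled down with an antibody. All groups carry this tag, and the driver allele is not named in the labels. The groups are offspring of dams fed high-fat diet (HFD) at postnatal day 21 (HFD P21, n = 4), offspring of chow-fed dams at that age (chow P21, n = 3), and the same diets at postnatal day 0 (HFD P0, n = 5, and chow P0, n = 5). Dams were put on the 45% HFD (Research Diets D12451) or on chow (Teklad Global Diet 2014) when 6 weeks old, were mated 4 weeks later, and kept that diet until their pups were weaned. The labels number the samples of a group as biological replicates without saying which animals, litters, sexes or pools they are, so the p-values below measure the spread between these samples.

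Kiss1 encodes kisspeptin, the main stimulator of gonadotropin-releasing hormone neurons. In the arcuate nucleus most kisspeptin neurons also make neurokinin B, from Tac2, and dynorphin, from Pdyn; neurokinin B starts and dynorphin stops their synchronous bursts, and these cells are named KNDy neurons after the 3 peptides. Tac1 encodes substance P and neurokinin A, and Penk encodes the enkephalins, which act at mu and delta opioid receptors; both are made by many kinds of hypothalamic neuron. In mice the Pomc promoter is also active in embryonic progenitors that later become neurons of other types, AgRP neurons and kisspeptin neurons among them, so a tag placed by such a driver can remain in cells that no longer express Pomc.

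The 5 genes fall into 3 precursor families by the peptide each precursor holds. The stretches below were read from the GRCm38 genome with GENCODE transcripts, 5′ to 3′ on the coding strand, and are shown because they are what sets the families apart; the capitals mark the codons of the shared peptide core. For Kiss1 the capitals mark the last 10 codons of kisspeptin, which end just before the glycine and basic codons used in amidation and cleavage. In the tachykinin genes they mark the codons of the Phe-X-Gly-Leu-Met ending, where X is Phe in substance P and Val in neurokinin A and neurokinin B.
Kiss1, kisspeptin: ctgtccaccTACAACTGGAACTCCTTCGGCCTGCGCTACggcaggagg
Tac1, substance P: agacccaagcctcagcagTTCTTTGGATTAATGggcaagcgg
Tac1, neurokinin A: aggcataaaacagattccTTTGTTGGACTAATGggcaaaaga
Tac2, neurokinin B: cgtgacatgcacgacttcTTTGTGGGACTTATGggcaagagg

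In the opioid genes the capitals mark the codons of the Tyr-Gly-Gly-Phe core and of the residue after it, Met in Met-enkephalin and Leu in Leu-enkephalin and the dynorphins. The Pdyn coding sequence of 248 codons holds this core 3 times, each time followed by Leu. That of Penk, 268 codons long, holds it 7 times, 6 times followed by Met and 1 time by Leu. The 3 copies of Pdyn are shown in order, followed by 1 Met copy and the Leu copy of Penk.
Pdyn, alpha-neoendorphin: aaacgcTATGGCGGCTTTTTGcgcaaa
Pdyn, dynorphin A: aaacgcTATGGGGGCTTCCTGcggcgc
Pdyn, dynorphin B: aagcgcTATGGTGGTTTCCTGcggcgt
Penk, Met-enkephalin: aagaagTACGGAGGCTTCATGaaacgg
Penk, Leu-enkephalin: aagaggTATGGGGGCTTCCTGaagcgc

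On GRCm38, Tac1 (ENSMUSG00000061762) lies at chr6:7554879-7565834 on the plus strand, Tac2 (ENSMUSG00000025400) at chr10:127724478-127731768 on the plus strand and Pdyn (ENSMUSG00000027400) at chr2:129686565-129699844 on the minus strand, and none of the 3 shares exonic bases with another annotated gene. Penk (ENSMUSG00000045573), at chr4:4133531-4138819 on the minus strand, shares 14.3% of its exonic bases with a gene model on the opposite strand. All of the exonic bases of Kiss1 (ENSMUSG00000116158, chr1:133321875-133329901, plus strand) are shared, with Golt1a and with a further gene model on the same strand, neither of which is in the table. Whether the authors' counting could divide or drop Kiss1 reads there is not given in the sources used here, so the level of Kiss1 is uncertain, and levels of Penk carry the same limit for the shared part.

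Values are in the scaled, CPM-like units of the deposited table, and depth was 22.4 to 37.1 M reads per library (M, mega). Pomc, the gene that names the targeted cells, was at 7460 to 9818 units in HFD P21, 3878 to 12070 in chow P21, 90.7 to 1057 in HFD P0 and 146 to 1308 in chow P0. Markers of other cells were present throughout: at P21 the summed level of 8 oligodendrocyte markers was 3956 to 7249 units in HFD and 8148 to 18164 in chow libraries, and that of 4 AgRP-neuron markers was 521 to 1006 in HFD and 67.5 to 694 in chow libraries. The library chow P21 replicate 3 stands apart. It had 12070 units of Pomc, against 4679 and 3878 in the other chow P21 libraries, and a summed AgRP-neuron marker level of 67.5, against 694 and 573. Cartpt, another POMC-neuron marker, was lower in it, at 391 units against 834 and 663. The summed level of 3 anterior-pituitary markers was 35.7 units, against 14.7 and 9.42. Its oligodendrocyte, astrocyte and tanycyte, and microglial sums were the highest of its group, at 18164, 3634 and 398 units. Its depth of 22.4 M reads was the lowest of all libraries. Differences that rest on this library are given below with and without it. In such pulldowns a lower level can come from fewer tagged cells that make an RNA or from less of it per cell. RNA of other cells, whose markers were present as given above, can also enter a level. These sources cannot be told apart.

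**Figure D1:**
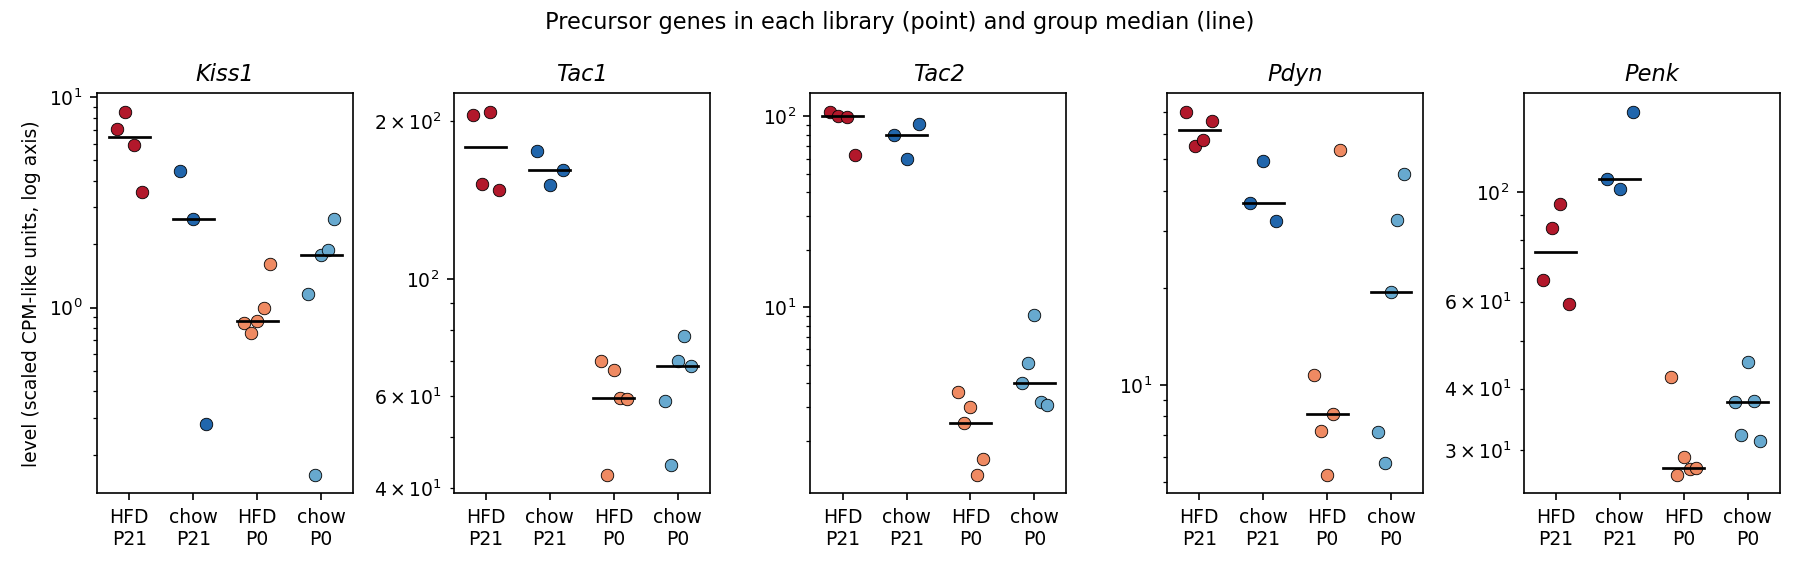
Level of each gene in every library (points, scaled CPM-like units on log axes that differ between panels) and group medians (lines) in HFD P21, chow P21, HFD P0 and chow P0. Tac1, Tac2 and Penk are higher in all P21 libraries than in all P0 libraries, Kiss1 is near or under 1 unit in several P0 libraries and at 0.28 units in 1 chow P21 library, and Pdyn spreads from 5.27 to 53.28 units within HFD P0.

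Per kb of exon, the order of the 5 levels differed between the ages. At P21 the mean level was 66.7 ± 14.2 units per kb for Tac2, 52.4 ± 9.70 for Tac1, 46.7 ± 9.90 for Penk, 21.5 ± 2.48 for Pdyn and 8.03 ± 2.70 for Kiss1 in HFD libraries (SD, n = 4). In chow libraries of that age it was 72.0 ± 14.7 units per kb for Penk, 55.6 ± 11.5 for Tac2, 47.8 ± 3.58 for Tac1, 13.6 ± 3.12 for Pdyn and 3.16 ± 2.69 for Kiss1 (SD, n = 3). In both groups the ranges of neighbours among Tac1, Tac2 and Penk overlapped, while Pdyn lay below these 3 and Kiss1 below Pdyn without overlap. At P0 the order was Penk, Tac1, Pdyn, Tac2 and Kiss1 in both diets, at 18.8 ± 3.99, 17.5 ± 3.15, 5.86 ± 7.07, 1.74 ± 0.684 and 1.3 ± 0.442 units per kb in HFD libraries (SD, n = 5). In chow libraries the values in that order were 22.6 ± 3.42, 18.8 ± 3.78, 7.59 ± 5.80, 3.55 ± 1.8 and 1.95 ± 1.19 units per kb (SD, n = 5). All neighbours at P0 overlapped in range. Per kb, Tac2 thus stood in the fourth place at P0 and in the first or second at P21. The length used is the union of all annotated exons of a gene, and the order at P21 depends on it. Before division by length, Tac1 had the highest mean at P21, at 178 units in HFD and 163 in chow libraries. Tac2 was at 91.9 units in HFD and 76.7 in chow libraries, and Penk at 76.3 and 117.7.

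The comparison of P21 with P0 asks how the levels of the precursors changed over the nursing period, within each maternal diet. In HFD offspring all 5 genes rose, by 1.28 to 4.79 on the log2(value + 1) scale (limma, Benjamini-Hochberg adjusted p under 0.05 over all genes). Of the 14245 genes tested there, 50.9% were called in either direction and 24.7% as higher. In chow offspring Tac1, Tac2 and Penk rose, and Kiss1 and Pdyn did not pass the test, beside a background of 36.1% of 14549 genes called in either direction and 18.3% as higher. The median log2 difference of the 5 genes was 1.81 in HFD offspring, against -0.05 over all genes tested, and 1.36 in chow offspring, against -0.01 over all genes. None of the P21 libraries overlapped the P0 libraries for the 5 genes in HFD offspring or for Tac1, Tac2 and Penk in chow offspring; such separation in the higher direction was found in 19.0% of all genes tested in HFD and 19.3% in chow offspring. The HFD and chow comparisons share no libraries.

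Among the tachykinin precursors, Tac2, the precursor of neurokinin B, had the largest age difference of the 5 genes in both diets. Tac2 was at 105.55, 100.60, 98.67 and 62.87 units in HFD P21 libraries, against 3.58, 2.46, 3.01, 1.32 and 1.61 units in HFD P0 libraries. All HFD P21 libraries were above all HFD P0 libraries, with a log2 difference of 4.79 (SE 0.27, adjusted p = 2.19e-08, limma). In chow offspring Tac2 was at 79.48, 59.56 and 90.99 units at P21, against 4.00, 5.09, 9.10, 3.19 and 3.08 units at P0. These groups did not overlap either, and the log2 difference was 3.79 (SE 0.31, adjusted p = 3.03e-06). The ratio of the group means was 38.4 in HFD and 15.7 in chow offspring. The library low in AgRP-neuron markers, chow P21 replicate 3, had the highest Tac2 level of its group, and without it the log2 difference was 3.65. AgRP-neuron markers passed as higher at P21 for 2 of 3 tested genes in HFD and 1 of 3 in chow offspring, and their summed level at P0 was 72.3 to 206 units in HFD and 74.9 to 160 in chow libraries.

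Tac1, the precursor of substance P and neurokinin A, had a smaller log2 difference with age than Tac2. At P21 Tac1 was at 205.20, 151.83, 208.19 and 147.54 units in HFD libraries, against 69.97, 42.42, 67.04, 59.36 and 59.07 units at P0. The ages did not overlap, and the log2 difference was 1.57 (SE 0.18, adjusted p = 1.07e-05, limma). Chow libraries held 175.23, 150.93 and 161.49 units of Tac1 at P21, against 58.65, 44.33, 69.77, 77.85 and 68.27 units at P0. Again all P21 libraries were higher, by 1.36 on the log2 scale (SE 0.18, adjusted p = 0.000110). The levels of Tac1 varied little within groups, with a coefficient of variation of 7.50% to 20.1%.

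The promoters of the tachykinin pair are shown because both genes rose with age. They are the 250 bases before the RefSeq start site on GRCm38.p6, 5′ to 3′ on the plus strand, chr6:7554811-7555060 for Tac1 and chr10:127724228-127724477 for Tac2. The GENCODE start of Tac1, at chr6:7554879, lies inside its window, so most of this window is within the gene as GENCODE annotates it. The capitals mark the short cAMP response element (CRE) motif, TGACG or CGTCA when read on the other strand, the core bound by CREB-family factors.
Tac1 promoter: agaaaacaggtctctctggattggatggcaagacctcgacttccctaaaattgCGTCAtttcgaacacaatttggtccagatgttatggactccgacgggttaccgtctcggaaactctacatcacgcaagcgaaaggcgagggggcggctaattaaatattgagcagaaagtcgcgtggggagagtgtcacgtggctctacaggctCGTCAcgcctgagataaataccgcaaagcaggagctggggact
Tac2 promoter: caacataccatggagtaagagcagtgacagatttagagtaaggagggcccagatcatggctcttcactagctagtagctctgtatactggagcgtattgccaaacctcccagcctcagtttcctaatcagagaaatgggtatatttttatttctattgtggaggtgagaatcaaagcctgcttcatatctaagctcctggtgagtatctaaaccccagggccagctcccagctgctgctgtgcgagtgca

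The Tac1 window holds this motif 2 times and the Tac2 window 0 times, and 17.8% of the 32851 promoter windows of this length hold it on either strand. The palindromic full element TGACGTCA, which contains the short motif, was in neither window and is in 1.55% of all windows. In the Kiss1 window the short motif occurs 1 time, and neither of the 2 Pdyn windows holds it.

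Among the opioid precursors, Penk rose with age in both diets. Penk was at 66.44, 84.58, 94.60 and 59.42 units in HFD P21 libraries, against 42.22, 26.74, 29.10, 27.54 and 27.65 units in HFD P0 libraries. There was no overlap, and the log2 difference was 1.28 (SE 0.20, adjusted p = 0.000121, limma). In chow offspring the values of Penk were 106.05, 101.57 and 145.36 units at P21, against 37.61, 32.19, 45.35, 37.73 and 31.39 units at P0. The chow ages were also fully apart, with a log2 difference of 1.64 (SE 0.18, adjusted p = 2.49e-05). Without chow P21 replicate 3, the highest of its group, the difference was 1.48. Oligodendrocyte markers passed as higher at P21 for 7 of 8 genes in HFD and 8 of 8 in chow offspring. Of 9 astrocyte and tanycyte markers 6 passed as higher and 1 as lower in HFD offspring, and 6 as higher and 0 as lower in chow offspring. For microglia 1 of 8 passed as higher in HFD and 6 of 8 in chow offspring. Of 6 endothelial markers 1 passed as higher and 4 as lower in HFD offspring, and 1 as higher and 1 as lower in chow offspring. Of 5 choroid plexus and ependyma markers 0 passed as higher and 3 as lower in HFD offspring, and 1 as higher and 1 as lower in chow offspring. At P0 the summed astrocyte and tanycyte level was 642 to 767 units in HFD and 639 to 936 in chow libraries, the oligodendrocyte level was 263 to 408 units in HFD and 354 to 976 in chow libraries, and the microglial level was 126 to 163 in HFD and 111 to 169 in chow libraries. Of 15 markers of other hypothalamic neurons 10 passed as higher and 1 as lower in HFD offspring, and 9 as higher and 1 as lower in chow offspring. The median log2 differences of that list were 1.37 and 1.23. The part of all these cells in the age difference of Penk was not tested.

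Pdyn, the precursor of the dynorphins, was at 70.23, 54.90, 57.32 and 65.74 units in HFD P21 libraries, against 10.74, 7.20, 5.27, 8.13 and 53.28 units in HFD P0 libraries. The lowest P21 library, at 54.90 units, was just above the highest P0 library, replicate 5, and the other P0 libraries were all under 11 units. The log2 difference was 2.33 (SE 0.47, adjusted p = 0.00105, limma), and 2.86 without HFD P0 replicate 5. In chow offspring Pdyn was at 36.52, 49.47 and 32.12 units at P21, against 7.17, 5.73, 19.42, 32.39 and 44.88 units at P0. These groups overlapped, and the difference of 1.17 (SE 0.54, adjusted p = 0.107) did not pass. It passed without chow P0 replicate 5, the highest of its group (1.51, adjusted p = 0.0253), and was 0.82 without chow P0 replicate 2, the lowest (adjusted p = 0.186).

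The level of Pdyn at P0 went with that of Pomc from library to library. The 4 P0 libraries with 657 to 1308 units of Pomc, which were HFD replicate 5 and chow replicates 3, 4 and 5, had Pdyn at 53.28, 19.42, 32.39 and 44.88 units. In the other 6 libraries, with 90.7 to 246 units of Pomc, Pdyn was at 5.27 to 10.74 units. Both diets were in both sets, with 1 HFD and 3 chow libraries in the higher one, so the diet groups compared at P0 differ in Pomc level as well. Kiss1 was divided in the same way, at 1.61, 1.77, 1.87 and 2.64 units in the libraries with more Pomc and at 0.16 to 1.16 units in the others. The levels of Tac1, Tac2 and Penk overlapped between these libraries, and Tac1 was at 59.07 to 77.85 units in the libraries with more Pomc and at 42.42 to 69.97 units in the others. Tbx3, a POMC-neuron marker, was at 68.83 to 218.85 units in the libraries with more Pomc and at 15.61 to 33.35 in the others. Cartpt, another such marker, was at 7.93 units in HFD replicate 5 and at 105.57, 7.21 and 8.89 in chow replicates 3, 4 and 5. In the others Cartpt was at 11.61 to 22.05 units. The split was not particular to POMC-neuron markers. The summed level of the AgRP-neuron markers was 110.5 to 205.91 units in the libraries with more Pomc and 72.26 to 92.06 in the others. That of the markers of other hypothalamic neurons overlapped, at 307.31 to 453.9 and 388.32 to 505.33 units. Whether the capture of POMC neurons or of other neurons has a part in the Pdyn and Kiss1 levels was not tested.

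**Figure D2:**
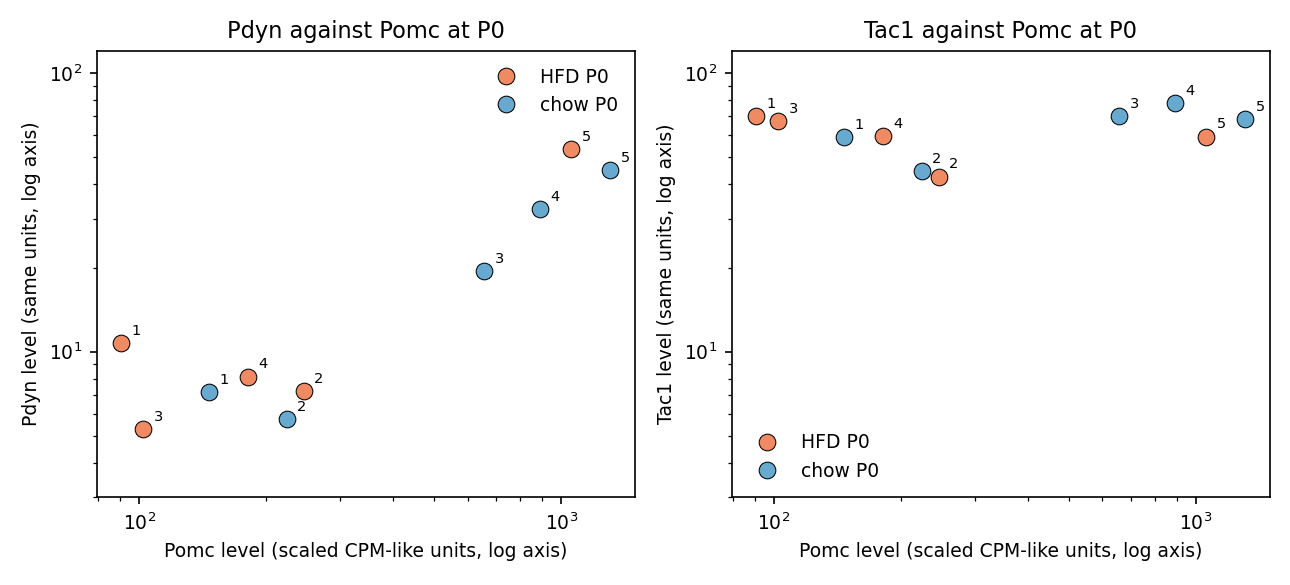
Level of Pdyn (left) and Tac1 (right) against that of Pomc in the HFD P0 and chow P0 libraries, numbered by replicate, on log axes in scaled CPM-like units. The 4 libraries above 657 units of Pomc have 19.42 to 53.28 units of Pdyn and the other 6 have 5.27 to 10.74, while Tac1 lies between 42.42 and 77.85 units throughout.

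Kiss1 was the least abundant of the 5, and its values rest on few reads. In HFD P21 libraries Kiss1 was at 7.02, 8.53, 5.94 and 3.53 units, against 0.84, 0.76, 0.86, 1.00 and 1.61 units in HFD P0 libraries. The ages did not overlap, and the log2 difference was 1.81 (SE 0.29, adjusted p = 0.000183, limma), a scale that understates changes of values near 1. Chow P21 libraries were at 4.46, 2.64 and 0.28 units, against 1.16, 0.16, 1.77, 1.87 and 2.64 units at P0. Here the groups overlapped and the difference was 0.32 (SE 0.49, adjusted p = 0.642). The lowest value, 0.16 units in chow P0 replicate 2, is 4 reads, and the next, 0.28 in chow P21 replicate 3, is 6 reads. Without chow P21 replicate 3 the difference was 0.92 (adjusted p = 0.151), and without chow P21 replicate 1 it was -0.13. The library with 0.28 units of Kiss1 is also the one with the low AgRP-neuron markers and the high Pomc level, while its levels of Tac1 and Pdyn, 161.49 and 32.12 units, were near those of the other chow P21 libraries.

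The comparison of HFD with chow offspring asks whether the mother's diet moved the precursors at each age. At P21 none of the 5 genes passed the test, where 0.178% of 14070 genes were called in either direction (25 genes by limma, with 2393 at an unadjusted p under 0.05). By edgeR's quasi-likelihood test on recovered reads 0 of the 5 passed as well, and at an unadjusted p under 0.05 limma had Kiss1, Pdyn and Penk. Pdyn and Penk were the 2 genes whose diet groups did not overlap at P21, in opposite directions; 8.34% of all genes tested were separated with HFD higher and 7.78% with HFD lower, and 16.1% in either direction.

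At P21 Pdyn averaged 62.0 ± 7.17 units in HFD (SD, n = 4) and 39.4 ± 9.02 units in chow libraries (SD, n = 3). All HFD libraries, at 54.90 units or more, lay above all chow libraries, at 49.47 units or less, with a log2 difference of 0.66 (SE 0.19, unadjusted p = 0.00438, adjusted p = 0.128, limma). Penk averaged 76.3 ± 16.2 units in HFD and 117.7 ± 24.1 units in chow libraries (SD). HFD libraries, at 94.60 units or less, were all below chow libraries, at 101.57 units or more, with a log2 difference of -0.62 (SE 0.20, unadjusted p = 0.00783, adjusted p = 0.156). Without chow P21 replicate 3 the differences were 0.53 for Pdyn (adjusted p = 0.425) and -0.46 for Penk (adjusted p = 0.478).

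Markers of glial and endothelial cells differed in the same direction as Penk at P21. All 9 astrocyte and tanycyte markers were below 0 in HFD minus chow (median log2 difference -0.84), as were 8 of 8 oligodendrocyte (-1.12), 8 of 8 microglial (-0.85) and 6 of 6 endothelial markers (-1.14), and 1 gene of these lists, an astrocyte marker, passed the test. The summed level of the microglial markers was 148 to 206 units in HFD and 250 to 398 in chow libraries, and that of the endothelial markers 40.6 to 66.9 in HFD and 87.6 to 128 in chow libraries. For the astrocyte list it was 1238 to 2178 units in HFD and 2308 to 3634 in chow libraries. No marker of these 4 lists was under 1 unit in every library of either group, and their part in the Penk difference was not tested. Of 15 markers of other hypothalamic neurons, 11 were below and 4 above 0, with a median of -0.23. Their summed level was 517 to 1219 units in HFD and 808 to 1432 in chow libraries, and their part was not tested either. Of 8 markers of striatal projection neurons, a group of cells in which the Drd2 type is rich in Penk and the Drd1 type in Tac1 and Pdyn, 4 were above and 4 below 0, with a median of -0.05. Their summed level was 137 to 174 units in HFD and 121 to 127 in chow libraries. Drd1a, marker of the type rich in Tac1 and Pdyn, was at 19.29 to 25.22 units in HFD and 7.88 to 11.21 in chow libraries (log2 difference 1.21, adjusted p = 0.0649, limma). Gpr6 and Rgs9 of the same list were also higher in all HFD libraries. Gpr6 was at 11.83 to 17.82 units in HFD and 5.10 to 10.30 in chow libraries, and Rgs9 at 61.04 to 80.41 and 22.98 to 52.31. Drd2, among the 4 below 0, overlapped between diets, at 2.91 to 7.54 units in HFD and 5.11 to 8.43 in chow libraries. The part of such cells in the Pdyn and Penk differences was not tested. The 5 POMC-neuron markers were all above 0 (median 0.72), and Cartpt, the precursor of the CART peptides, passed as higher in HFD libraries.

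Kiss1 at P21 averaged 6.26 ± 2.10 units in HFD (SD, n = 4) and 2.46 ± 2.10 units in chow libraries (SD, n = 3), and the groups overlapped. The log2 difference was 1.25 (SE 0.47, adjusted p = 0.213, limma) with all libraries and 0.65 (adjusted p = 0.590) without chow P21 replicate 3. Tac1 averaged 178 ± 33.0 units in HFD and 163 ± 12.2 units in chow libraries (SD), a log2 difference of 0.12 (SE 0.16, adjusted p = 0.755). Tac2 averaged 91.9 ± 19.6 units in HFD and 76.7 ± 15.9 units in chow libraries (SD), a log2 difference of 0.25 (SE 0.21, adjusted p = 0.578). With 1 library left out the difference of Tac1 ran from 0.035 to 0.20. That of Tac2 ran from 0.083 without chow P21 replicate 2 to 0.42 without HFD P21 replicate 4, the lowest of its group (SE 0.18, adjusted p = 0.304).

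**Figure D3:**
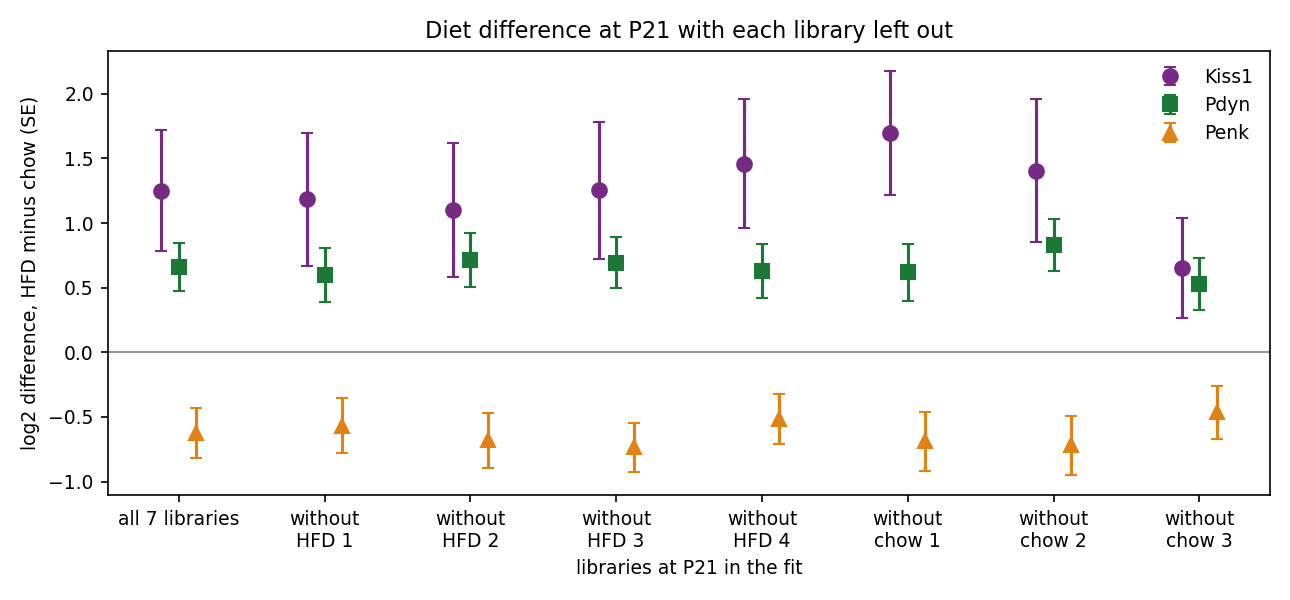
Log2 difference of Kiss1, Pdyn and Penk between HFD and chow offspring at P21 (HFD minus chow, bars are SE) with all 7 libraries and with each library left out in turn. Kiss1 and Pdyn stay above 0 and Penk below 0 in each fit, and all 3 are nearest to 0 without chow replicate 3, at 0.65, 0.53 and -0.46.

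At P0 none of the 5 genes passed between diets, where 0.291% of 14086 genes were called (41 genes by limma, with 1307 at an unadjusted p under 0.05), and edgeR on recovered reads also called 0 of the 5. All 5 had overlapping groups, where 2.45% of all genes tested had groups that did not overlap, and all differences were below 0, with a median of -0.27 against -0.0024 over all genes. Tac2, the 1 gene of the 5 with an unadjusted p under 0.05, averaged 2.40 ± 0.943 units in HFD and 4.89 ± 2.49 units in chow libraries (SD, n = 5 each), a log2 difference of -0.75 (SE 0.31, unadjusted p = 0.0296, adjusted p = 0.458). Chow P0 replicate 3, at 9.10 units, was the highest of its group, and without it the difference of Tac2 was -0.54. Penk averaged 30.7 ± 6.52 units in HFD and 36.9 ± 5.59 units in chow libraries (-0.27, SE 0.18, adjusted p = 0.682). For Tac1 the means were 59.6 ± 10.7 units in HFD and 63.8 ± 12.8 units in chow libraries (-0.09, SE 0.18, adjusted p = 0.915).

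The low-level and the most variable gene gave wide errors at P0. Kiss1 averaged 1.01 ± 0.344 units in HFD and 1.52 ± 0.924 units in chow libraries (-0.24, SE 0.32, adjusted p = 0.872, limma). The Kiss1 difference was -0.50 without chow P0 replicate 2 (adjusted p = 0.582) and -0.084 without chow P0 replicate 5 (adjusted p = 0.982), the libraries lowest and highest in their group. Pdyn averaged 16.9 ± 20.4 units in HFD and 21.9 ± 16.8 units in chow libraries (-0.50, SE 0.60, adjusted p = 0.852). The Pdyn difference was -1.04 (adjusted p = 0.286) without HFD P0 replicate 5 and -0.16 (adjusted p = 0.980) without chow P0 replicate 5, the libraries with the 2 highest levels of Pdyn.

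Whether the age difference itself differed between the diets was tested as an interaction over all 17 libraries, and none of the 5 genes passed (0.0266% of 15037 genes did by limma, 4 genes, with 2290 at an unadjusted p under 0.05; edgeR on recovered reads also called 0 of the 5). Kiss1, which passed with age in HFD and not in chow offspring, had an interaction of 1.49 (SE 0.56, unadjusted p = 0.0154, adjusted p = 0.226), and 0.89 without chow P21 replicate 3. Tac2 had 1.01 (SE 0.42, unadjusted p = 0.0258, adjusted p = 0.265) and Pdyn 1.16 (SE 0.80, adjusted p = 0.496). For Pdyn the value ran from 0.82 without chow P0 replicate 5 to 1.69 without HFD P0 replicate 5. Tac1 had 0.21 (adjusted p = 0.731) and Penk -0.36 (adjusted p = 0.534), with ranges of 0.093 to 0.33 and -0.47 to -0.20 with 1 library left out. A difference between the diets in how far the genes rose was therefore not shown for any of them at this number of libraries.

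**Figure D4:**
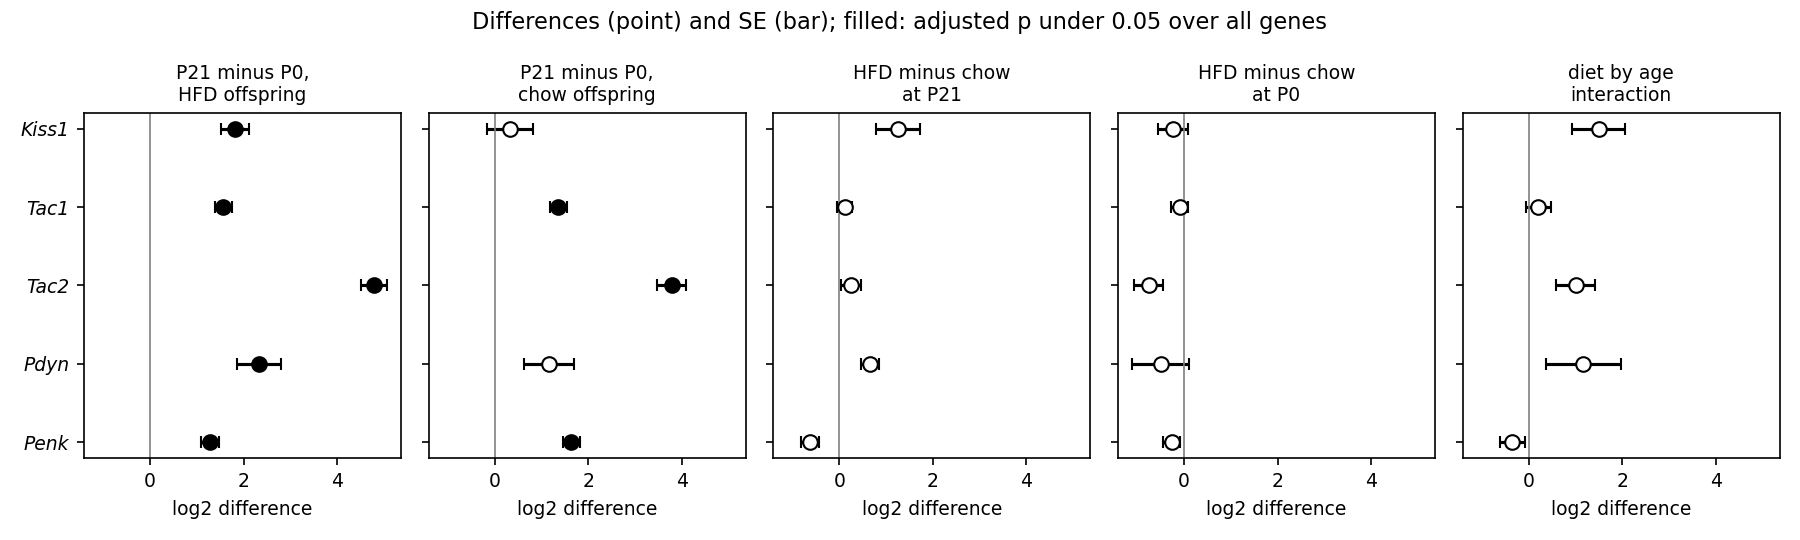
Log2 differences (points) with their SE (bars) for the 5 genes in each comparison, on 1 shared axis; filled points passed at an adjusted p under 0.05 over all genes. With age all 5 genes are filled in HFD and Tac1, Tac2 and Penk in chow offspring, and no point is filled for diet or for the interaction.

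The receptors of these peptides were read in the same libraries. Of all genes tested 26.2% were called as lower at P21 in HFD and 17.7% in chow offspring, beside the shares called higher given above. With age 2 of 7 tested receptor genes rose in HFD offspring and 1 of 7 in chow offspring, and none fell. Oprk1, the kappa receptor for dynorphins, rose in HFD offspring (0.87, SE 0.34, adjusted p = 0.0460, limma), as did Oprl1, the nociceptin receptor (0.54, adjusted p = 0.0359). Tacr3, the receptor of neurokinin B, rose in chow offspring (1.20, SE 0.32, adjusted p = 0.0107) and had 0.98 (adjusted p = 0.0600) in HFD offspring. Kiss1r, the kisspeptin receptor, had 0.69 (adjusted p = 0.0616) in HFD and 0.87 (adjusted p = 0.0750) in chow offspring. The mu receptor gene Oprm1 was low throughout, at 1.23 to 2.24 units in HFD P21, 1.71 to 2.64 in chow P21, 0 to 1.60 in HFD P0 and 0.20 to 1.67 units in chow P0 libraries.

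Genes that turn precursors into peptides rose widely with age. Of 10 processing genes 7 rose and 1 fell in HFD offspring, and 7 rose and 0 fell in chow offspring, with median log2 differences of 1.15 and 0.93. The same 7 genes rose in both diets. They were the prohormone convertases Pcsk1 and Pcsk2, the Pcsk1 inhibitor Pcsk1n, the Pcsk2 chaperone Scg5, the carboxypeptidase Cpe, the amidating enzyme Pam and the protease Ctsl. Of the exonic bases of Ctsl 26.9% are shared with other gene models. Pcsk1 had the largest value in HFD offspring, 3.82 (SE 0.59, adjusted p = 0.000126, limma), against 2.06 (SE 0.43, adjusted p = 0.00246) in chow offspring; this pair of differences did not pass the interaction test (1.76, adjusted p = 0.328). Pam, which amidates kisspeptin and the tachykinins, rose by 2.16 in both diets. Pcsk5 fell in HFD offspring (-0.69, adjusted p = 0.0153).

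**Figure D5:**
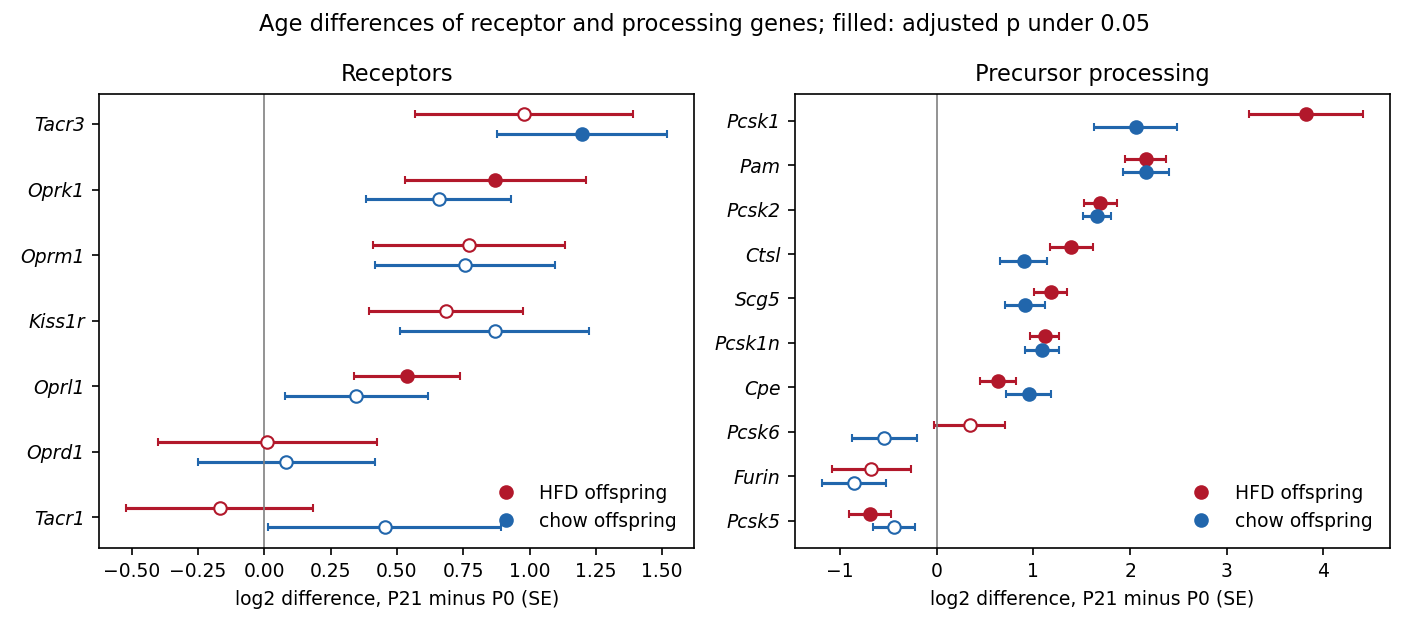
Log2 difference between P21 and P0 (P21 minus P0, bars are SE) of the receptor genes (left) and the precursor-processing genes (right), in HFD offspring (red) and chow offspring (blue); filled points passed at an adjusted p under 0.05. Processing genes with filled points in both diets lie between 0.63 and 3.82, and most receptor genes are open.

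Of 7 tested peptidase genes, which break released peptides down, 3 rose and 1 fell with age in HFD offspring and 2 rose and 1 fell in chow offspring. The endothelin-converting enzyme Ece2, which shares 57.5% of its exonic bases with another gene model, rose most (3.05 in HFD and 2.09 in chow offspring), and the prolyl peptidase Prep fell (-1.28 in HFD and -1.57 in chow offspring). Among 16 genes of receptor signalling, 5 rose and 6 fell in HFD and 2 rose and 4 fell in chow offspring. Kcnj9, a subunit of the potassium channels that opioid receptors open, rose in both (1.99 in HFD and 2.58 in chow offspring), and Gnai3, an inhibitory G protein, fell in both. Of the other opioid and RFamide precursors, Pomc rose in both diets, by 5.31 in HFD and 3.65 in chow offspring, and Pnoc, the nociceptin precursor, fell in HFD offspring (-0.71, adjusted p = 0.0177).

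Genes tied to kisspeptin neurons and to puberty changed in both directions with age. In HFD offspring 6 of 13 rose and 3 fell, and in chow offspring 5 rose and 4 fell. Mkrn3, an imprinted gene whose loss advances human puberty, fell by 3.26 on the log2 scale in HFD offspring (adjusted p = 5.05e-07, limma) and by 3.24 in chow offspring (adjusted p = 5.19e-06). Mkrn3 was at 2.84 to 4.32 units in HFD P21, 2.48 to 4.43 in chow P21, 32.17 to 71.33 in HFD P0 and 26.07 to 54.42 units in chow P0 libraries, so the ages did not overlap. Lin28b, a regulator of let-7 microRNAs, fell as well (-1.67 in HFD and -2.05 in chow offspring). The estrogen receptor gene Esr1 rose by 2.98 in HFD and 1.93 in chow offspring, and the progesterone receptor gene Pgr by 0.90 in both.

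Between diets none of the receptor, processing, peptidase, signalling, other precursor or puberty genes passed at P21 or at P0 by limma, and of the 56 tested at each age 10 at P21 and 1 at P0 had an unadjusted p under 0.05. The smallest adjusted p at P21 was that of Plcb3, a phospholipase of Gq signalling (-1.36, SE 0.32, adjusted p = 0.0944, limma). Pcsk1 had 0.95 (SE 0.23, adjusted p = 0.103) and Cpe -0.44 (SE 0.15, adjusted p = 0.179) in HFD minus chow at that age.

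The genes whose levels went most closely with each precursor were found from deviations from the group means over the 17 libraries, among 15037 genes, and these correlations are descriptions of libraries that differ in depth and cell content. Pdyn had the closest neighbours: Usp5, a ubiquitin-specific protease, had a Pearson r of 0.98 and a Spearman rho of 0.97, and Prkar1a, a regulatory subunit of protein kinase A, had an r of 0.97 and a rho of 0.92. Fbxo3 followed with an r of 0.97 and a rho of 0.89. For Pomc the r was 0.83 with Pdyn and 0.22 with Kiss1, and for Cartpt it was -0.31 with Pdyn and 0.13 with Kiss1. Kiss1 went with Npdc1 (r 0.89, rho 0.82), Tac1 with Dimt1 (r 0.88, rho 0.80) and Tac2 with Chrm3, a muscarinic receptor (r 0.83, rho 0.79). Penk went with Akr1b10 (r 0.87, rho 0.91) and then with C1qa, a complement gene of the microglial list (r 0.84, rho 0.78). Between the 5 genes themselves r lay between -0.35, for Tac2 and Pdyn, and 0.66, for Tac2 and Penk, and for Kiss1 and Tac2 it was -0.14.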

How the data were processed

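Ribosome-bound RNA from 17 libraries was sequenced as single reads of 50 bases, per the labels' protocols. Strand handling was not given in the sources used here, nor was gene selection, and the submitters' processing notes name build mm10 and, with no role or order, TopHat2 2.0.13, HTSeq 0.6.1, Picard 1.80, FastQC and edgeR. The deposited table gives a normalized signal per gene, CPM-like and rounded to 2 decimals, for 15355 genes, and 15 further columns are empty. From the values, in every library at least 99.99% of non-zero values lie within 0.005 units of a whole number of reads, against 21.8% to 36.4% for random values; 1 read is worth 0.0275 to 0.0460 units, and a value of 0 allows up to 3 reads, or 0.0826 to 0.138 units (counting error only).

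The main test was limma (version 3.58.1, R 4.3.3), run on the log2 of value + 1 with a trended prior variance, on the libraries of each comparison alone and, for the interaction, on all libraries. P-values are two-sided and Benjamini-Hochberg adjusted over all genes tested, with a threshold of 0.05. A gene entered a test if it exceeded 1 unit in a number of libraries equal to the smallest group or more. The scale understates changes of low genes. Differences are P21 minus P0 and HFD minus chow. Lists are described by counts and medians. Alternatives were other pseudocounts, filters, scalings and spread estimates, a replicate block, leaving out each library, and edgeR 4.0.16 on recovered reads. The code that runs the tests was tested on simulated data. Exonic lengths and overlaps come from GENCODE M21 (GRCm38), promoters from RefSeq; Penk has no promoter shown. Figures were drawn with matplotlib 3.10.9.

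The 5 genes and the gene lists were chosen with earlier results of these data known. The 5 were named in every comparison, other list genes where they passed or were among the 2 smallest p-values of their list, Oprm1 and Kiss1r were named after their values were seen, and the likeness rule took the 3 genes with the highest r. Tacr2, Tac4 and Drd1 have no row under these symbols.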

Additional observations from a re-analysis of the deposited data

Results flagged for a closer look

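In 4 of 15 sets of libraries (5 genes in the 3 groups of 4 or 5 libraries), 1 library lay far from the rest of its group by Dixon's test at 95%, where chance gives about 1 in 20. In HFD P0 replicate 5, Pdyn was at 53.28 units, against 5.27 to 10.74 in the other 4, and Kiss1 at 1.61 units, against 0.76 to 1.00. Pomc in that library was at 1057 units, against 90.7 to 246. In HFD P0 replicate 1, Penk was at 42.22 units, against 26.74 to 29.10 in the others. In HFD P21 replicate 4, Tac2 was at 62.87 units, against 98.67 to 105.55 in the others. Leaving out these libraries changed no call of the 5 genes in the comparisons that use them. No interaction of diet and age passed for them.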

How the results depend on the processing

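The number of the 5 genes past the threshold stayed within 1.5 times its value under all 97 alternatives over the 5 comparisons (0 for both diet comparisons and the interaction, 5 for age in HFD offspring, 2 to 4 for age in chow offspring). Of 485 alternative values of single genes, 477 kept direction and side of the threshold. At P0 the difference of Tac1 between diets turned to 0.023 without HFD replicate 2 and to 0.067 with edgeR on reads recovered in 6 libraries, where that of Penk was 0.082. With age in chow offspring, Kiss1 ranged from -0.13 without chow P21 replicate 1 to 0.92 without chow P21 replicate 3, and turned to -2.46 in the 6-library edgeR fit, which has 1 P21 library, replicate 3, assumed to vary like the others. In that fit Tac1 had 1.35 and missed the threshold (adjusted p = 0.0703). The cause was not tested otherwise. Pdyn, not past with age in chow offspring, passed without chow P0 replicate 5 (1.51) and had 0.85 with edgeR on 17 libraries (adjusted p = 0.252) and 0.23 with edgeR on 6 (adjusted p = 0.915). For diet at P0, Kiss1 had -0.70 with edgeR on 6 libraries and -0.56 on 17. EdgeR on reads recovered in all 17 libraries, an alternative chosen after seeing the data, kept the calls of the 5 genes. A coarser test of whole reads accepted 6 of the 17 libraries, and the reads of the others rest on a finer search alone.

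Samples with the same replicate number did not deviate together in every pair of any comparison: the correlations were -0.17 to 0.49 for diet at P0, where 3 of 5 pairs were above 0.1, -0.04 to 0.10 for diet at P21, -0.10 to 0.09 for age in chow and -0.05 to 0.12 for age in HFD offspring, so the numbers are not taken to pair them. With the number as a replicate block in limma, Pdyn passed with age in chow offspring (1.93, adjusted p = 0.00581), and no other call of the 5 genes changed. The block kept only replicate numbers found in every group of a comparison. The chow age fit therefore left out chow P0 replicates 4 and 5, at 32.39 and 44.88 units of Pdyn. The part of the block and that of the left-out libraries in this change were not separated. Over all genes the block moved the calls for diet at P0 to 16 higher and 88 lower, against 1 and 40 without it.

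Scaling to column sums moved the median of all genes for age in HFD offspring to -0.21, against -0.05, and the split of calls to 2851 higher and 4583 lower, against 3521 and 3729. For diet at P21 it gave 13 higher and 22 lower, against 14 and 11. All 5 genes kept their directions and calls under it. Depth limits Kiss1 most, with 4 and 6 reads in its lowest libraries.

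Over all genes the number called for diet at P0 was 41; it was 104 with the block, 9 with all groups fitted together, 3 with edgeR on 6 libraries, and 18 to 135 with 1 library left out, the highest without HFD P0 replicate 5. For diet at P21 it was 25, against 16 with no filter, 1 with no intensity trend, 15 with edgeR on 17 libraries and 3 to 51 with 1 library left out. For the interaction it was 4, against 9 with column sums, 2 with no trend and 14 with edgeR on 17 libraries. It was 12 with the block, a fit that also left out the libraries whose replicate number is not in every group. With 1 library left out it was 2 to 557, the highest without HFD P0 replicate 5, where still none of the 5 genes passed. For age in chow offspring it was 5251, against 941 with edgeR on 6 libraries and 4946 with edgeR on 17, and for age in HFD offspring 7250, against 6788 with edgeR on 17.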
